A study of Homo sapiens with 32 samples.

Results

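FLAG-tagged Chtop was compared with FLAG-tagged Nxf1 by iCLIP, gene by gene and region by region. The comparison takes the 3 libraries of each protein, 6 of the 12 libraries of the series, chosen by the tagged protein that their labels name, with the mitochondrial chromosome left out. These libraries held 1319590 of the 2723935 tags of the series, 1014200 from Chtop and 305390 from Nxf1. In iCLIP, protein and RNA are crosslinked by UV light in living cells and the base before the end of each cDNA marks the contact, so that a tag is 1 deduplicated cDNA at 1 crosslinked base. All lines were FlpIn cells, named FlpIn-293 in the paper, a human embryonic kidney line. In these cells a tetracycline-inducible transgene sits at a fixed recombination site, and each line kept its endogenous genes beside the tagged copy. Chtop was induced with 10 ng/mL and Nxf1 with 5 ng/mL tetracycline, both for 48 h, and both were precipitated with the same anti-FLAG antibody. The Control, with 3 libraries, carried the empty FLAG construct. Nothing in the labels says that replicates came from separate cultures, so p-values measure only the spread between these libraries.

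TREX is the complex that binds mRNA during its synthesis and splicing and hands it to the export receptor. Chtop is an arginine-rich TREX subunit that works with the helicase DDX39B and with Alyref to open the RNA-binding domain of Nxf1. Nxf1 then carries the mRNA through the nuclear pore by touching nucleoporins. The question of the comparison is thus where the adaptor and the receptor that it serves were found on the same RNAs. A gene's tags depend on how much of its RNA was present and on how often the protein touched it, and in bulk lysates these cannot be told apart, nor can fewer cells and less RNA per cell.

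Depth and quality differed between libraries. Chtop libraries 1, 2 and 3 held 46955, 537921 and 429324 tags, and Nxf1 libraries 8105, 118540 and 178745, so that 1 tag was worth between 1.86 CPM (tags scaled to the total of the library) in Chtop 2 and 123 CPM in Nxf1 1. A count of 0 in Nxf1 1 allows up to 370 CPM, and such limits cover counting error only. In the first libraries many positions lay at a fixed distance of 1 to 3 nt from positions of other libraries, 28.2% of positions in Nxf1 1 and 21.9% in Chtop 1, against 14.2% and 11.7% in Control 1 and 2. These shares include positions that are merely close. Between Nxf1 1 and Nxf1 3, 10.3% lay at the offset and 5.69% on average at the offsets beside it. The cause of the offsets was not tested. The log2 CPM of genes correlated at 0.89 between Chtop 2 and 3 and at 0.68 between Nxf1 2 and 3, whereas Nxf1 1 correlated at 0.37 with both Chtop 2 and Chtop 3 and at 0.24 and 0.18 with Nxf1 2 and 3. Nxf1 3 correlated at 0.61 with Control 2. Results are therefore given also without replicate 1 of every group. With the positions at a shared offset left out, an alternative chosen after seeing the data, 513 genes were higher in Chtop and 341 higher in Nxf1. Markers chosen for HEK293T cells gave 335 tags in Chtop and 101 in Nxf1, and markers of other cell types 22 and 6.

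The tagged proteins could add tags to their own coding sequences. The CDS of NXF1 took 0, 24 and 18 tags in Nxf1 1, 2 and 3 against 0, 20 and 7 in the deeper Chtop libraries. The difference was not confined to the CDS. The 3′ UTR of NXF1 held 0, 118 and 56.0 CPM in Nxf1 and 0, 33.5 and 32.6 CPM in Chtop. The NXF1 gene as a whole held 123, 329 and 179 CPM in Nxf1 and 42.6, 94.8 and 53.6 CPM in Chtop, without overlap (log2 fold change, Chtop minus Nxf1, -1.90 ± 0.37 SE, edgeR adjusted p = 0.00046). CHTOP held 128, 251 and 291 CPM in Chtop and 370, 169 and 50.4 CPM in Nxf1, which overlapped (1.00 ± 0.38, edgeR adjusted p = 0.047). The call was lost with a replicate block, and without 1 library in turn the value ranged from 0.43 to 1.58. With exonic tags only, the value of CHTOP turned to -0.07. ALYREF had too few tags to be tested. Transcripts of the transgene and of the endogenous gene cannot be told apart in the CDS.

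The sites below show what the leading genes look like at the contact itself. Each is the base with most tags in a leading gene among those crosslinked in all 3 libraries of the favoured protein, with 10 nt on either side, 5′ to 3′ on the gene's strand, from the hg19 genome, and the capital marks the crosslinked base. The first 4 are from genes higher in Chtop, and the last 4 from RNAs higher in Nxf1.
GOLGA8A, 3′ UTR, chr15:34672790-34672810, minus strand: ttcagtgaccTaaaaagggct
CMTR2, 3′ UTR, chr16:71317127-71317147, minus strand: ccgatttcctCttagtggcta
ZWINT, 3′ UTR, chr10:58117259-58117279, minus strand: ctcttactttTatcagatgat
NLGN2, CDS, chr17:7317975-7317995, plus strand: ctcccaggttTtctcagcacc
ENSG00000270103, non-coding exon, chr1:28975140-28975160, plus strand: cgtagggcaaCtcgattgctc
RNU4-2, non-coding exon, chr12:120729625-120729645, minus strand: ttgaaaacttTtcccaatacc
RMRP, non-coding exon, chr9:35657931-35657951, minus strand: taggggaaagTccccggacct
ENSG00000270022, non-coding exon, chr22:43011356-43011376, plus strand: gacccgcctaCtttgcgggat
Even these bases held few tags. The RNU4-2 base had 1, 3 and 1 tags in Nxf1, 0, 0 and 1 in Chtop and 0, 0 and 1 in the Control, and the GOLGA8A base had 1, 1 and 2 tags in Chtop and 0 in every Nxf1 and Control library. The preference of a gene was thus spread over many bases of the RNA, with 594 Chtop tags over GOLGA8A as a whole.

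At the level of genes, Chtop was ahead on long-exon and zinc finger mRNAs and Nxf1 on small non-coding RNAs and on short mRNAs, such as those for ribosomal proteins. Of 3369 genes tested, 507 (15.0%) were higher in Chtop and 356 (10.6%) higher in Nxf1, 25.6% in either direction (edgeR quasi-likelihood test, adjusted p under 0.05). DESeq2 called 156 and 101. Which protein led turned with the scaling, since RLE factors gave 442 and 472 and library size alone 401 and 535. Groups also did not overlap in CPM for 260 (7.72%) and 145 (4.30%) of them. The counts depended on single libraries, falling to 107 and 80 without Nxf1 3, to 229 and 147 without Chtop 3 and to 305 and 187 without Nxf1 2, while 950 and 729 of 8648 genes were called without replicate 1 of any group. With exonic tags only, 178 of 1181 genes were higher in Chtop and 248 higher in Nxf1.

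The Control lay near Nxf1 for many of these genes. Among the 507 genes higher in Chtop the median of the pooled CPM was 219 in Chtop, 62.2 in Nxf1 and 77.6 in the Control. The Control was at or above Nxf1 in 292 of them and at or above Chtop in 3, and Chtop was above the Control by edgeR in 227. Among the 356 genes higher in Nxf1 the medians were 60.6 CPM in Chtop, 147 in Nxf1 and 122 in the Control, and the Control was at or above Chtop in 321 and at or above Nxf1 in 144. Hence most of the genes higher in Nxf1 had less Chtop than Control, with a median log2 fold change of Chtop against Control of -1.25 and of Nxf1 against Control of 0.28. By edgeR, 0 of the 3369 genes were higher in Nxf1 than in the Control at an adjusted p under 0.05 (158 at an unadjusted p under 0.05), and 300 were higher in Chtop.

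Several of the genes with the largest differences in favour of Chtop had most of their tags in the 3′ UTR. GOLGA8A, a golgin-family gene with near-identical relatives whose reads the unique mapping could split, held 575, 521 and 668 CPM in Chtop against 123, 25.3 and 44.8 CPM in Nxf1 (588 ± 74.8 against 64.5 ± 51.9, SD, n = 3). All Chtop libraries lay above all Nxf1 libraries (log2 fold change 3.71 ± 0.44, edgeR adjusted p = 5.37e-07), and the Control held 143, 21.6 and 54.3 CPM. Of its Chtop tags 92.8% were in the 3′ UTR. NLGN2, which encodes neuroligin 2, an adhesion protein of inhibitory synapses, held 426, 227 and 298 CPM in Chtop and 0, 33.7 and 39.2 CPM in Nxf1 (2.80 ± 0.49). ZWINT, a kinetochore protein gene, held 106, 154 and 198 CPM against 0, 50.6 and 0 CPM (2.84 ± 0.58), with 89.6% of the Chtop tags in the 3′ UTR. Its call was lost without Nxf1 3 (1.81, edgeR adjusted p = 0.059), and without Nxf1 2, where no Nxf1 tag was left, the fitted value was 8.37.

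Others had most of their tags in the CDS. NOP9, a nucleolar RNA-binding protein of ribosome assembly, held 213, 178 and 221 CPM in Chtop against 123, 16.9 and 11.2 CPM in Nxf1, and 83.1% of its Chtop tags were in the CDS (3.36 ± 0.53). CHD3, a remodelling ATPase of the NuRD complex, held 106, 141 and 126 CPM against 0, 25.3 and 0 CPM (3.45 ± 0.71). CMTR2, the cap methyltransferase of the second transcribed nucleotide, held 149, 180 and 161 CPM against 123, 16.9 and 5.59 CPM (3.40 ± 0.62). In Nxf1 1 each value of 123 CPM was 1 tag, so that the separation rested on the other Nxf1 libraries. FIGNL1, an ATPase of recombinational repair, followed with 60.9% in the CDS (3.29), whereas HPS4, a subunit of a lysosome-related trafficking complex, had 26.4% in the CDS and 43.7% in the 3′ UTR (3.18). The 4 lncRNA genes among the 12 leading genes, ENSG00000291055, EBLN3P, ENSG00000260267 and ENSG00000291201, lay between 3.07 and 3.31. The call for EBLN3P was lost without Nxf1 3 (2.41, edgeR adjusted p = 0.056).

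RNAs led by Nxf1 were short and non-coding in 10 of the 12 leading cases. RMRP, the RNA of RNase MRP, held 370, 599 and 257 CPM in Nxf1 against 63.9, 79.9 and 30.3 CPM in Chtop, without overlap (-2.99 ± 0.38, edgeR adjusted p = 1.84e-06), and 143, 345 and 136 CPM in the Control. RNU4-2, a U4 snRNA of the spliceosome, held 247, 599 and 347 CPM in Nxf1 against 106, 52.1 and 46.6 CPM in Chtop (-3.18 ± 0.40), and here the Control, at 429, 388 and 299 CPM, lay as high as Nxf1. ENSG00000270103, of 131 nt on chromosome 1, has no symbol in the annotation used, which types it as lncRNA. It held 494, 481 and 235 CPM in Nxf1 and 63.9, 20.4 and 32.6 CPM in Chtop (-3.78 ± 0.44), against 286, 86.2 and 163 CPM in the Control. The U5 snRNA RNU5D-1 (-3.85), a U5 copy (RNU5A-8P, -2.88), a 5S copy (RNA5SP74, -3.02) and a pair of Y RNA copies (-3.23 and -2.86) came with them. Without Nxf1 3 the 5S copy (-1.58) and both Y RNA copies (-3.01 and -2.73) did not pass, and without Chtop 2 and Chtop 3 the 5S copy stood at -2.12 and -4.785 and the second Y RNA copy at -1.83, which did not pass, and -3.60. These families have near-identical copies, so that tags may belong to another copy of the family. The other members were MARCKSL1, a small membrane-bound regulator of actin, at 123, 152 and 50.4 CPM in Nxf1 against 21.3, 14.9 and 11.6 CPM in Chtop (-2.91 ± 0.81), and PIGU, a subunit of the GPI transamidase, at 123, 110 and 78.3 CPM against 0, 24.2 and 9.32 CPM (-2.70 ± 0.60), whose 28 Nxf1 tags were all in introns.

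The same split was seen by RNA class. Of 22 snRNA genes tested 15 were higher in Nxf1 and the others did not pass (median log2 fold change -1.97), as were 9 of 10 genes annotated as miscellaneous RNA, among them Y RNAs and their copies (median -3.03). Of 106 lncRNA genes 16 were higher in Chtop and 29 higher in Nxf1 (median -0.74), and of 3210 protein-coding genes 488 and 297 (median 0.06). Classes are those of the annotation. Its lncRNA class holds short transcripts without a symbol, such as ENSG00000270103, ENSG00000270066 and ENSG00000270022, whose identity was not checked. Over all tags in 1 gene, the miscellaneous RNA share was 0.22%, 0.03% and 0.06% in Chtop and 0.26%, 0.64% and 0.99% in Nxf1. The groups did not overlap, but in the first libraries the Wilson 95% intervals, 0.179% to 0.281% for Chtop and 0.160% to 0.410% for Nxf1, did. The Control shares were 0.15%, 0.21% and 0.88%, so that Control 3 was near Nxf1 3. snoRNA and scaRNA genes, the guides of RNA modification, took 0.01%, 0.02% and 0.01% in Chtop against 0.06%, 0.06% and 0.05% in Nxf1, below the 0.07% to 0.11% of the Control. The snRNA share was 1.04%, 0.12% and 0.17% in Chtop and 0.78%, 0.90% and 1.06% in Nxf1, which overlapped because Chtop 1 lay with Nxf1. The Control held 0.58%, 0.85% and 1.97%, so that all Nxf1 libraries lay within its range. DESeq2 called 6 of the 22 snRNA and 5 of the 10 miscellaneous RNA genes higher in Nxf1. Without Nxf1 3 the calls fell to 7 of 20 snRNA and 2 of 9 miscellaneous RNA genes, and without replicate 1 they were 40 of 47 and 46 of 52.

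By region, Chtop tags lay more in CDS and 3′ UTR in replicates 2 and 3 but not in replicate 1, and Nxf1 tags lay more in introns, by under 1 percentage point in replicate 1. The CDS share was 19.3%, 27.0% and 28.7% in Chtop and 23.8%, 15.3% and 7.57% in Nxf1. The 3′ UTR share was 17.2%, 24.5% and 29.3% against 22.2%, 14.9% and 7.33%. Introns took 26.4%, 27.7% and 17.7% of Chtop tags and 27.3%, 42.2% and 46.4% of Nxf1 tags. In each case Nxf1 1 lay among the Chtop libraries and Nxf1 2 and 3 lay on the side of the Control, whose intron shares were 42.2%, 55.8% and 46.9%. Means were 24.98% ± 4.99 against 15.5% ± 8.13 for the CDS, 23.6% ± 6.10 against 14.8% ± 7.46 for the 3′ UTR and 23.9% ± 5.46 against 38.6% ± 10.0 for introns (SD, n = 3, two-sided exact permutation p = 0.2 for each). With 3 libraries against 3 the exact test cannot go below p = 0.1, nor below an adjusted 0.352 over the 44 measures compared, and 9 of the 44 (20.5%) had groups that did not overlap. Without replicate 1 the differences were 16.4 percentage points for the CDS, 15.7 for the 3′ UTR and -21.6 for introns.

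**Figure D1:**
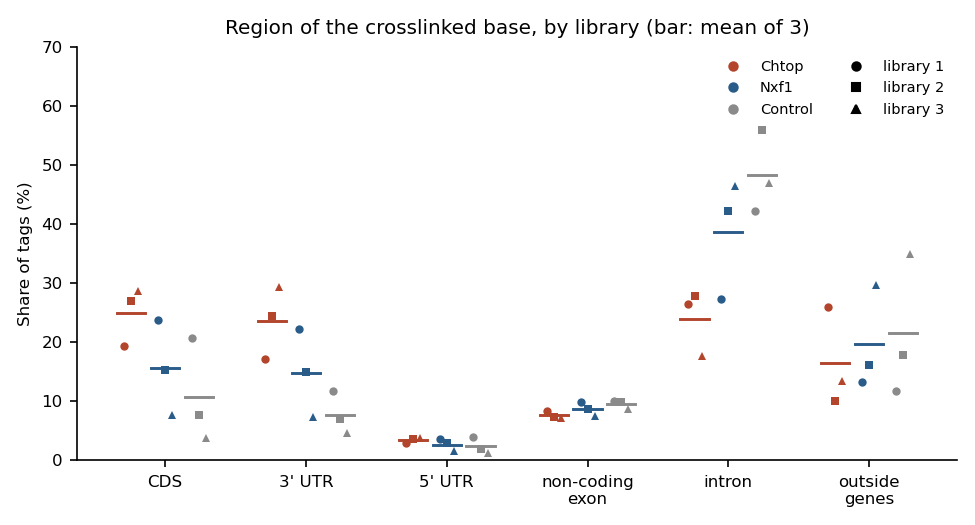
Share of tags (%) by region of the crosslinked base, with 1 point per library of Chtop, Nxf1 and Control and a bar at the mean of 3. Nxf1 2 and 3 sit below the Chtop points in CDS and 3′ UTR and above them in introns, and Nxf1 1, at 23.8% CDS and 27.3% intron, sits with Chtop.

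Counted per gene and region in 1 fit, 703 of 2222 gene regions (31.6%) were higher in Chtop and 148 (6.66%) higher in Nxf1, 38.3% in either direction. Of 534 CDS regions 426 (79.8%) were higher in Chtop and 4 (0.749%) higher in Nxf1, 80.5% in all. Of 287 3′ UTRs these were 233 (81.2%) and 2 (0.697%), 81.9% in all. Of 1274 introns 6 (0.471%) were higher in Chtop and 111 (8.71%) higher in Nxf1, 9.18% in all, and of 119 non-coding exons 31 (26.1%) each, 52.1% in all. Of 8 5′ UTRs 7 (87.5%) were higher in Chtop. In this fit the median log2 fold change was 2.23 over CDS regions, 2.49 over 3′ UTRs, -0.68 over introns and -0.21 over non-coding exons. When each kind of region was scaled on its own, 45 CDS regions were higher in Chtop and 66 higher in Nxf1 of 334, 30 and 39 3′ UTRs of 138, and 27 introns and 1 of 1104, so the direction of a single region stands against that of its kind. Scaling also mattered within 1 fit, since with library size alone 583 regions were higher in Chtop and 599 higher in Nxf1, 544 of the latter introns. Regions called also moved with single libraries, to 370 and 32 without Nxf1 3, 470 and 75 without Nxf1 2, 1083 and 384 without Nxf1 1, 462 and 26 without Chtop 3 and 1136 and 205 without Chtop 1.

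Regions of a gene could be almost empty in Nxf1. Those named were picked by the size of their change, and a region could pass the filter without Nxf1 tags. Their low Nxf1 counts thus follow in part from that choice. The 3′ UTR of NLGN2 had 14, 62 and 65 tags in Chtop and 0 in all Nxf1 libraries, which is at least 14.2-fold higher against the limit of 3 counts over the group. The 3′ UTR of TRAF5, a signalling adaptor of TNF receptors, had 8, 63 and 60 tags against 0, at least 13.1-fold higher, and the CDS of AHI1, a protein of the ciliary transition zone, had 10, 88 and 52 against 0, at least 15.1-fold higher. The Control held 0, 2 and 5 tags in the 3′ UTR of NLGN2, 0, 1 and 0 in that of TRAF5 and 1, 3 and 0 in the CDS of AHI1. The 3′ UTR of GOLGA8A, with 23, 258 and 270 tags against 0, 1 and 3, that of SUN1, a nuclear envelope protein, with 7, 117 and 129 against 0, 2 and 0, and that of FNBP4, a formin-binding protein, with 5, 83 and 76 against 0, 1 and 1, had log2 fold changes of 5.72, 5.42 and 4.83. FNBP4 was also among the leading CDS regions (5.49). MON2, of Golgi traffic, was the last of the leading 3′ UTRs (4.53). The CDS of NPIPB4, ANKRD36C and ANKRD36, at 8.42, 5.56 and 5.26 as fitted, belongs to families of near-identical genes and is uncertain. That of NPIPB4 had 0 tags in all Nxf1 libraries, so its fitted value has no upper bound, and against the same limit it was at least 15.6-fold higher. TOP3B, a topoisomerase that acts on RNA and DNA, stood at 4.92. All these values are from the joint fit and stand beside its medians of 2.49 over 3′ UTRs and 2.23 over CDS regions.

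In the joint fit, 4 CDS regions and 2 3′ UTRs were higher in Nxf1, against 66 and 39 when each kind was scaled on its own. The CDS of EEF1A1, the elongation factor that brings aminoacyl-tRNA to the ribosome, had 2, 19 and 18 tags in Nxf1 and 1, 14 and 11 in the much deeper Chtop libraries (-2.003 ± 0.63), and 0 in the Control. LDHB, a lactate dehydrogenase subunit (-2.09), and RPS4X, a ribosomal protein (-1.56), were also among the CDS regions higher in Nxf1, and the 3′ UTR of TMBIM6, an ER membrane protein, had 1, 21 and 21 tags in Nxf1 against 1, 17 and 9 in Chtop (-2.08 ± 0.58). Introns higher in Chtop numbered 6 in the joint fit and 27 when scaled on their own. Those named were in SELENOO (7, 74 and 62 tags in Chtop, 0, 5 and 7 in Nxf1, 2.24 ± 0.60), in RBM15, a subunit of the m6A writer complex (1.99), in HOXD3 (1.72) and in ANKRD18A (1.68). Introns higher in Nxf1 were led by PIGU (-2.38), DPP8 (-2.14), ZNF148 (-2.11), AGBL5 (-2.06), ASAP2 (-1.92) and AMOT (-1.91), each with 27 to 43 Nxf1 tags. In the introns of ZNF148 the Control held 143, 172 and 163 CPM, above the 123, 118 and 89.5 CPM of Nxf1, and in those of DPP8 it held 143, 108 and 272 CPM, overlapping Nxf1 at 123, 127 and 78.3 CPM.

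Among non-coding exons, those higher in Chtop were in long transcripts, such as LINC00174 (4.32), CCDC57 (3.81), EBLN3P (3.65), ENSG00000260267 (3.65), ENSG00000291201 (3.41) and LINC00205 (3.25). LINC00205 had 11, 86 and 71 tags in Chtop against 0, 5 and 2 in Nxf1. The 6 leading ones higher in Nxf1 were RNAs already named, RNU5D-1, ENSG00000270103, ENSG00000270066, a Y RNA copy, RNU4-2 and RMRP, between -3.27 and -2.48.

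Gene structure ordered the differences more clearly than the 3′ UTR did. Over protein-coding genes grouped by their longest middle exon, the median log2 fold change went from -0.35 below 200 nt (855 genes) through 0.03, 0.27 and 0.38 to 0.54 at 2000 nt or more (151 genes). In the shortest class 10.6% of genes were higher in Chtop and 16.5% higher in Nxf1, and in the longest 31.1% and 1.99%, against 15.2% and 9.27% over all 3205 protein-coding genes with a coding transcript. The classes kept their direction from lowest to highest with exonic tags only (-0.41 to 0.62). Coding length behaved alike, with medians of -0.81 below 600 nt, -0.50, -0.04, 0.13 and 0.55 at 4800 nt or more, and of -2.20 to 0.58 with exonic tags only. As a description across genes, which are not independent replicates, Spearman's rho was 0.246 with the longest middle exon and 0.263 with coding length.

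The same was seen per library when genes were summed. Genes with a coding length of 4800 nt or more took 18.3%, 20.0% and 18.4% of the exonic tags in Chtop and 17.2%, 10.9% and 11.5% in Nxf1. Those under 1200 nt took 18.8%, 18.3% and 18.4% in Chtop and 19.5%, 31.8% and 30.1% in Nxf1. The groups did not overlap in either, with Nxf1 1 nearest to Chtop, and the Control held 16.2%, 12.5% and 12.4% for the long genes and 20.7%, 26.5% and 28.1% for the short ones, so that Nxf1 2 and 3 lay near Control 2 and 3 and Nxf1 1 near Control 1. Replication-dependent histone genes, which are short, intronless and end without a poly(A) tail, took 0.11%, 0.07% and 0.05% of exonic tags of protein-coding genes in Chtop and 0.08%, 0.58% and 0.48% in Nxf1 (exact permutation p = 0.2), and 0.09%, 0.15% and 0.31% in the Control. None of the 64 histone genes had enough tags to be tested alone with all libraries, and without replicate 1 11 were tested, 6 of them higher in Nxf1 (median -2.01).

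**Figure D2:**
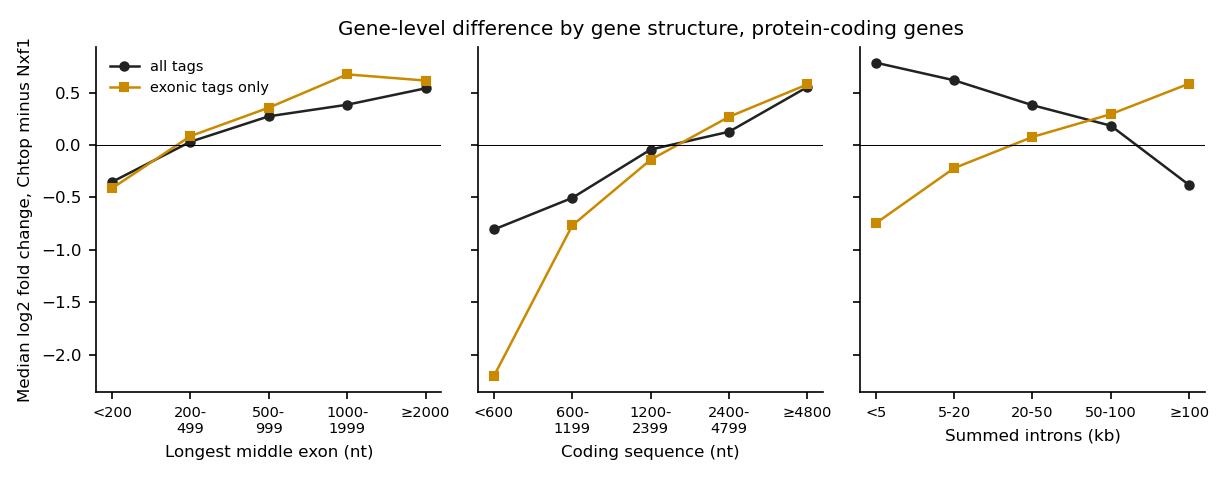
Median log2 fold change of protein-coding genes (Chtop minus Nxf1) by longest middle exon, coding length and summed intron length, from all tags (black) and from exonic tags only (gold). For the longest middle exon the black line rises from -0.35 to 0.54 and the gold line from -0.41 to 0.67 in the fourth class and 0.62 in the last, both lines rise with coding length, whereas for introns the black line falls from 0.79 to -0.38 and the gold line rises from -0.75 to 0.59.

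Intron length gave opposite answers for the gene and for its exons. With all tags the median log2 fold change fell from 0.79 in genes with under 5 kb of introns through 0.62, 0.38 and 0.18 to -0.38 at 100 kb or more (rho -0.374). With exonic tags only it rose from -0.75 to 0.59 (rho 0.327). The 14 tested genes of 1 exon had a median of 1.73 with all tags and 9 of them were higher in Chtop, yet the 11 with enough exonic tags had -0.04 when only exonic tags were compared. GC content of the coding sequence was nearly flat (rho -0.0401), and with exonic tags only it fell from 0.68 below 40% to -0.20 at 60% or more (rho -0.205).

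Within transcripts, long middle exons took more of the Chtop tags. Relative to the density over all middle exons, those of 1000 nt or more had a log2 density of 0.45, 0.72 and 0.78 in Chtop and of 0.69, -0.37 and -0.30 in Nxf1, and those under 100 nt of -0.27, -0.62 and -0.66 against -0.44, 0.09 and 0.14. Nxf1 1 again lay among the Chtop libraries (exact permutation p = 0.2 for both). The Control was at -0.87, -0.49 and 0.22 in the long exons. Without replicate 1 the difference was 1.08 in the long exons and -0.75 in the short ones.

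The length of the 3′ UTR hardly ordered genes. Median log2 fold changes were -0.18 in genes with a 3′ UTR under 500 nt (16.4% higher in Nxf1) and between -0.02 and 0.18 in the longer classes, with rho near 0 (-0.000221). What changed with length, in replicates 2 and 3 but not in replicate 1, was the balance of the 3′ UTR against the CDS. The log2 density ratio of 3′ UTR to CDS in the class of 4000 nt or more, minus that under 500 nt, was -1.55, -1.43 and -1.57 in Chtop. In Nxf1 it was -1.60, -0.82 and -0.71, which overlapped (exact permutation p = 0.4). Over all transcripts the log2 ratio of their densities was -0.27, -0.23 and -0.06 in Chtop and -0.21, -0.13 and -0.16 in Nxf1, a mean difference of -0.02 that changed sign with other choices. For 3′ UTRs of 4000 nt or more it was -1.14, -1.11 and -1.02 in Chtop and -1.06, -0.47 and -0.47 in Nxf1, lower in Chtop under each of the 3 replicate numbers (difference -0.42, exact permutation p = 0.2), with -1.89, -0.87 and -0.04 in the Control. Per gene with at least 10 Nxf1 tags in the CDS and 3′ UTR, the median interaction (the log2 ratio of 3′ UTR to CDS in Chtop over that in Nxf1) went from 0.74 below 500 nt (205 genes) through 0.75, 0.47 and 0.04 to -0.40 at 4000 nt or more (520 genes). In the longest class a median of 67.8% of a gene's CDS and 3′ UTR tags were in the 3′ UTR in Chtop and 75% in Nxf1, in the shortest 17.6% and 13.3%. The interaction also moved with depth. Over all lengths its median was 0.38 with no minimum of Nxf1 tags, 0.21 with at least 10 and -0.06 with at least 50 (50 genes).

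**Figure D3:**
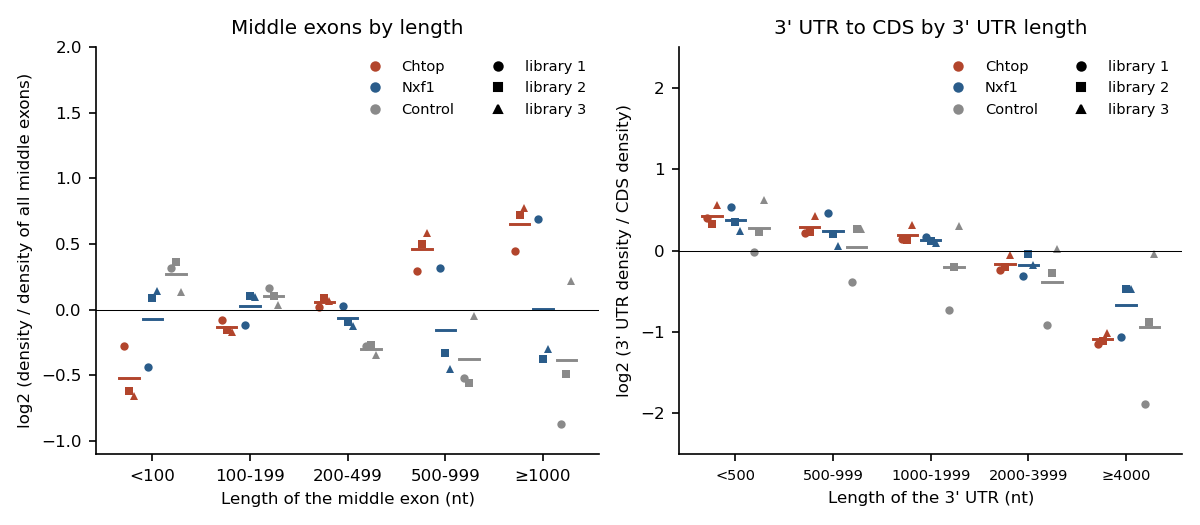
Log2 tag density of middle exons by length relative to all middle exons (left) and of the 3′ UTR relative to the CDS by 3′ UTR length (right), 1 point per library with a bar at the mean of 3. Chtop rises to 0.45, 0.72 and 0.78 in exons of 1000 nt or more, and in 3′ UTRs of 4000 nt or more Nxf1 2 and 3, both at -0.47, lie above Chtop at -1.14 to -1.02.

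Within single genes, 4 of 8492 tested (0.0471%) had more of their tags in the 3′ UTR in Nxf1 than in Chtop, and 0 the other way (edgeR, adjusted p under 0.05, with 321 higher in Chtop and 231 higher in Nxf1 at an unadjusted p under 0.05; DESeq2 was not run on it). Their 3′ UTRs were 2851 to 4490 nt long. SUGP2, a G-patch protein related to splicing factors, had 15.4%, 13.5% and 13.8% of its CDS and 3′ UTR tags in the 3′ UTR in Chtop and 0%, 60% and 68.8% in Nxf1 (interaction -3.37 ± 0.63, edgeR adjusted p = 0.00077). The value of 0% rested on 1 tag. SRSF1, an SR protein of splicing, had 50%, 57.4% and 51.1% in Chtop and 100%, 90.9% and 92.9% in Nxf1 (-3.22 ± 0.71, edgeR adjusted p = 0.018). HNRNPU, a nuclear matrix and pre-mRNA binding protein, had 23.1%, 19.0% and 18.6% against 37.5%, 46.2% and 60% (-2.03 ± 0.46), and PRPF4B, a kinase of the spliceosome, 66.7%, 17.6% and 14.7% against 0%, 86.7% and 50% (-3.50 ± 0.78), the last with overlap through Chtop 1 and Nxf1 1. In the Control the share was 66.7% and 80% for SRSF1 in libraries 2 and 3, 37.5% and 55.6% for HNRNPU in the same libraries, where it lay with Nxf1, 50% and 90.9% for SUGP2 in Control 1 and 2, and 0%, 33.3% and 0% for PRPF4B. Without Nxf1 3, 0 genes were called, without Nxf1 2, Chtop 2 or Chtop 3 only 1 was, and without Nxf1 1 there were 8. On simulated data the test found only 17% of genes of at least 300 tags that had been changed 4-fold. Most differences of that size would thus be missed at this depth, and smaller ones were not simulated.

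At the far end of the 3′ UTR Chtop held more. The log2 density of the last relative to the first 500 nt of the 3′ UTR was -0.60, -0.69 and -0.64 in Chtop and -0.76, -1.09 and -1.05 in Nxf1, without overlap (difference 0.32, exact permutation p = 0.1, the smallest possible), with -0.88, -0.87 and -0.97 in the Control. Past the annotated end the order was the other way round. Tags in the 50 nt downstream of the gene end, over those in the last 50 nt of canonical transcripts, had a log2 ratio of -3.64, -2.49 and -3.03 in Chtop and -2.42, -2.38 and -2.02 in Nxf1, without overlap (p = 0.1 by the same exact test), and -1.14, -1.84 and -1.86 in the Control. Few tags lay behind the first libraries, 3 downstream and 16 upstream in Nxf1 1 and 12 and 150 in Chtop 1, so the separation is fragile. At the start, the first 200 nt had a log2 density relative to the rest of the transcript of 0.07, -0.25 and -0.32 in Chtop and -0.24, 0.54 and 0.39 in Nxf1, with the Control highest at 0.77, 0.83 and 0.64. Upstream of internal junctions, where the exon junction complex sits, the window of 24 to 75 nt held 25.6%, 25.04% and 25.2% of the tags near junctions in Chtop and 27.3%, 26.0% and 27.2% in Nxf1, against 28.7%, 29.0% and 26.0% in the Control. These groups did not overlap, but they differed by only 1.55 percentage points. Around the stop codon, the 200 nt after had a log2 density relative to the 200 nt before of 0.62, 0.64 and 0.69 in Chtop. It was 0.67, 0.49 and 0.43 in Nxf1, with overlap (exact permutation p = 0.3), and 0.33, 0.72 and 0.91 in the Control.

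**Figure D4:**
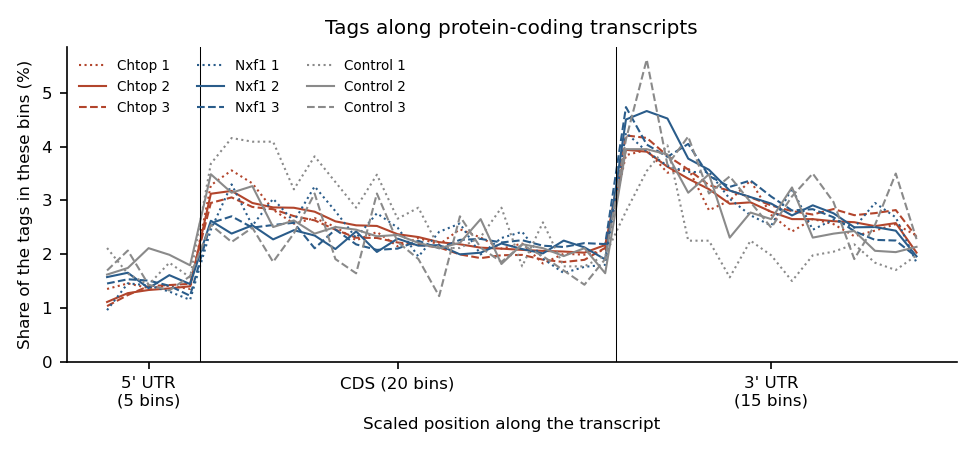
Share (%) of the tags in these bins along protein-coding transcripts, cut into 5 bins of 5′ UTR, 20 of CDS and 15 of 3′ UTR, with 1 line per library. In the first CDS bin Chtop, at 3.28%, 3.12% and 2.95%, lies above Nxf1, at 2.45%, 2.62% and 2.58%, and in the first 3′ UTR bin Nxf1, at 4.25%, 4.50% and 4.73%, lies above Chtop, at 3.84%, 3.94% and 4.21%. Both bins are given as examples, and differences of single bins were not tested.

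Introns differed in place as well as in share. First introns had a log2 density relative to other introns of -0.03, 0.13 and -0.21 in Chtop and 0.27, 0.33 and 0.40 in Nxf1. The last 100 nt of introns, next to the 3′ splice site, had a log2 density relative to the intron body of 1.62, 1.42 and 2.57 in Chtop and 0.93, 1.26 and 0.62 in Nxf1. Introns that another isoform retains stood at 2.70, 2.65 and 3.10 relative to other introns in Chtop and 2.502, 2.19 and 1.46 in Nxf1. None of these groups overlapped (exact permutation p = 0.1 for each), and in each the Control overlapped Nxf1, with 0.35, 0.15 and 0.28, then 1.06, 1.74 and 0.26, then 2.32, 2.20 and 1.37. OGT, the O-GlcNAc transferase whose gene keeps a detained intron, held 1044, 1199 and 1395 CPM in Chtop and 1357, 312 and 134 CPM in Nxf1 (1.92 ± 0.48, edgeR adjusted p = 0.0041), again with Nxf1 1 among the Chtop libraries. These OGT values are for the gene as a whole, and 0 intron regions of the list of genes with detained introns had enough tags to be tested. OGT was the 1 gene called of 4 tested in that list, against 15.0% of all genes, and 0 were called without Nxf1 3.

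Messenger RNAs of cytosolic ribosomal proteins are short and abundant. Of 86 genes 17 were tested, 15 of these were higher in Nxf1 and the other 2 did not pass, against 10.6% of all genes, with a median log2 fold change of -1.91 against 0.04 over all genes. RPS16 held 123, 295 and 173 CPM in Nxf1 and 21.3, 65.1 and 58.2 CPM in Chtop (-2.10 ± 0.35), and RPL4 held 123, 287 and 117 CPM against 42.6, 65.1 and 30.3 CPM (-2.14 ± 0.40), both without overlap. RPS19 held 0, 363 and 168 CPM against 21.3, 66.9 and 20.96 CPM (-2.64 ± 0.41), where the 0 was a library in which 0 tags allow 370 CPM. Relative to the Control the median of the tested genes was 1.21 in Nxf1 and -0.37 in Chtop. The count was 11 of 17 by DESeq2, 19 of 20 with exonic tags only, 43 of 68 without replicate 1 and 7 of 11 without Nxf1 3.

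Other lists, with at most 13 genes tested in each, are read against the 10.6% of all genes higher in Nxf1. Of 13 translation initiation factor genes tested 3 were higher in Nxf1, led by EIF5A at 123, 169 and 129 CPM in Nxf1 against 21.3, 37.2 and 34.9 CPM in Chtop (-2.23 ± 0.48). Of 8 glycolytic genes GAPDH (-1.79), LDHB (-1.77) and ENO1 (-1.33) were higher in Nxf1 and ENO2, the neuronal enolase, higher in Chtop at 42.6, 102 and 142 CPM against 0, 33.7 and 11.2 CPM (2.28 ± 0.60). By DESeq2, with exonic tags only or without Nxf1 3, 0 glycolytic genes were higher in Chtop. ENO1 held 0, 515 and 201 CPM in Nxf1 and 572, 323 and 272 CPM in the Control. Among 6 heat-shock genes HSP90B1, the chaperone of the ER, was higher in Chtop (2.15) and HSPA9 of mitochondria was higher in Nxf1 (-1.12), a call lost by DESeq2 and without Nxf1 3. Of 7 snoRNA host genes 1 was higher in Nxf1, as was 1 of 3 mitochondrial ribosomal protein genes and 1 of 5 respiratory chain genes, and without Nxf1 3 the calls for the snoRNA host and the respiratory chain were lost. Both Pol III transcripts tested, RMRP and the Y RNA RNY1 (-1.77), were higher in Nxf1, and the only immediate-early gene tested, JUN, did not pass (0.70, edgeR adjusted p = 0.171).

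Zinc finger genes of chromosome 19 mostly have a last exon that codes for a long array of fingers. Of 251 genes 31 were tested, 13 were higher in Chtop, against 15.0% of all genes, and the other 18 did not pass (median 1.12). ZNF224, a KRAB zinc finger repressor, held 554, 381 and 422 CPM in Chtop and 123, 143 and 55.9 CPM in Nxf1 (2.04 ± 0.40). ZNF507 held 234, 323 and 294 CPM against 0, 92.8 and 55.9 CPM (1.91 ± 0.39). ZNF460 (2.03) and ZNF558 (2.93) were higher too, with overlap through Nxf1 1. The median relative to the Control was 1.46 in Chtop and 0.17 in Nxf1. The count was 5 of 31 by DESeq2, 6 of 12 with exonic tags only, 32 of 125 without replicate 1 (where 1 was higher in Nxf1) and 4 of 26 without Nxf1 3.

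Lists of export and splicing genes, with 5 to 19 genes tested in each, are read beside the 15.0% of all genes higher in Chtop. Of 12 SR protein genes tested 4 were higher in Chtop, led by SRSF6 at 341, 383 and 503 CPM against 617, 135 and 44.8 CPM (1.86 ± 0.41). With exonic tags only 2 of 10 were higher in Chtop and 3 higher in Nxf1, and without Nxf1 3 none passed. Of 20 TREX and receptor genes 5 were tested, and CHTOP, NCBP3 of the cap complex (1.48), THOC2 of the THO core (1.24) and the helicase DDX39B (1.28) were higher in Chtop and NXF1 higher in Nxf1. The calls for NCBP3, THOC2 and DDX39B all had overlap through Nxf1 1, and without Nxf1 3 no gene of this list was higher in Chtop. That for CHTOP had overlap too and was lost with a replicate block. Of 19 nucleoporin genes 3 were higher in Chtop, RANBP2 (1.79), NUP50 (2.15) and TPR (1.296), a share near that of all genes, and none was with exonic tags only or without Nxf1 3. Of 10 exon junction complex and decay genes 2 were higher in Chtop, also near that share, and 0 were with exonic tags only (1 was higher in Nxf1) or without Nxf1 3. Of 10 cleavage and polyadenylation genes 0 passed by edgeR (2 at an unadjusted p under 0.05, both higher in Chtop), and of 17 hnRNP genes 0 (1 higher in Chtop and 1 higher in Nxf1 at an unadjusted p under 0.05), and DESeq2 called 0 in both lists. DESeq2 called 1 of the 12 SR protein genes and 1 of the 5 TREX genes higher in Chtop. Among 8 nuclear lncRNAs TUG1 was higher in Chtop at 234, 909 and 787 CPM against 617, 126 and 72.7 CPM (2.37 ± 0.43), and NEAT1, the paraspeckle RNA, did not pass (0.75, adjusted p = 0.21).

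**Figure D5:**
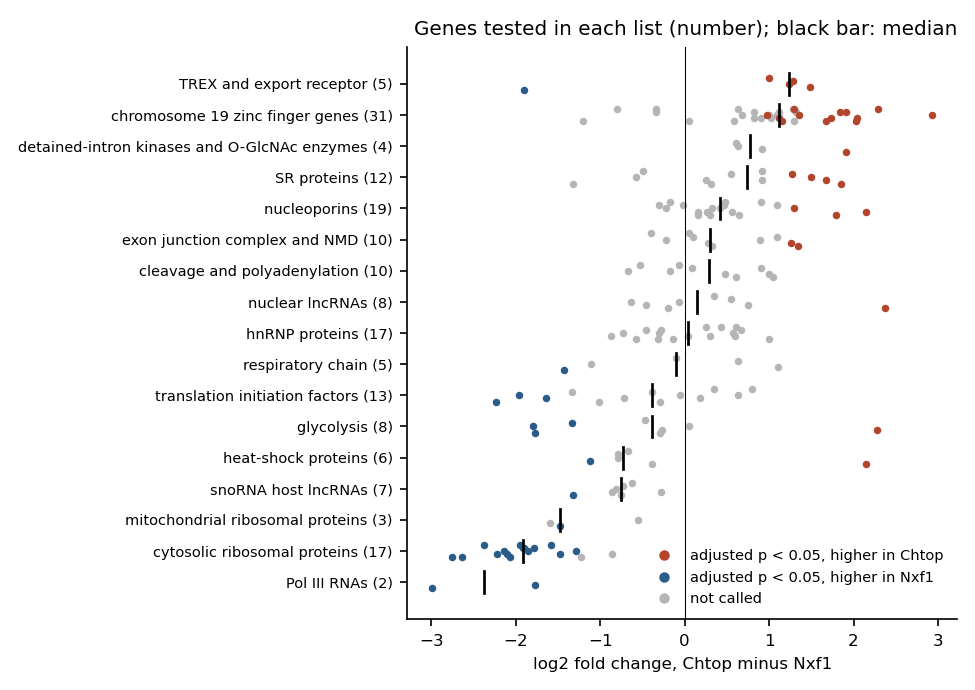
Log2 fold change (Chtop minus Nxf1) of each tested gene by list, with the number tested in brackets, a black bar at the median, red and blue for an adjusted p under 0.05 by edgeR and grey for the rest. Ribosomal protein genes lie left of 0 with a median of -1.91, and chromosome 19 zinc finger genes lie mostly right of it with a median of 1.12.

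The base at the contact differed mainly in coding sequence. Uracil was the crosslinked base of 45.8%, 49.5% and 50.7% of CDS tags in Chtop and of 38.0%, 43.96% and 43.9% in Nxf1, without overlap (48.7% ± 2.53 against 42.0% ± 3.46, SD, n = 3, exact permutation p = 0.1), and of 36.3%, 39.6% and 39.5% in the Control. In the 3′ UTR it was 59.3%, 62.1% and 62.9% against 49.1%, 60.2% and 59.2%, and only Nxf1 1 lay far off. Of all tetramers within 5 nt of crosslinked bases, 34 (13.3%) were more frequent in Chtop and 50 (19.5%) in Nxf1 in the CDS, 32.8% in all (edgeR, adjusted p under 0.05). TAGT held 1.92%, 1.86% and 1.91% in Chtop and 1.43%, 1.44% and 1.44% in Nxf1 (0.39 ± 0.07, edgeR adjusted p = 0.0013), with 1.41%, 1.45% and 1.17% in the Control. GGCC was lower in Chtop, at 2.57%, 2.44% and 2.42% against 3.03%, 3.01% and 3.24% (-0.35 ± 0.06, edgeR adjusted p = 0.0013), and 2.82%, 2.84% and 4.30% in the Control. Of the 34 tetramers higher in Chtop 31 had at most 1 G or C, and of the 50 higher in Nxf1 35 had at least 3, a composition held by 80 of all tetramers. In the 3′ UTR 1 tetramer (0.391%) was more frequent in Chtop, GAAT at 2.84%, 3.02% and 2.96% against 2.38%, 2.57% and 2.18% (0.31), and 0 were more frequent in Nxf1 by edgeR (13 at an unadjusted p under 0.05; DESeq2 was not run on it). The call for GAAT was lost without Chtop 2, Chtop 3 or Nxf1 3, and 2 tetramers were called without Nxf1 1. The mix of genes behind the CDS tags differs between the proteins, and its part in the base composition was not tested.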

How the data were processed

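FLAG iCLIP was made with 3 libraries each of Chtop, Nxf1 and Control. Per the study's methods the authors removed phiX reads, moved the molecular barcodes (UMIs) to the read names, trimmed and demultiplexed with Reaper, mapped uniquely to hg19 with junctions of Ensembl 75, merged lanes, removed duplicates by UMI and took the base before the read, or the most 5′ deletion, as crosslinked. The submitters' processing notes name Bowtie 1.1.2, STAR 2.4.2a and UMI-tools 0.5.3. The deposited files hold whole-number counts of tags per crosslinked base. The files of single libraries were used, and those that merge the replicates of a protein were not. Every column used belongs to a sample of the series.

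Tags were assigned by strand to genes and regions from all transcripts of GENCODE 44 lifted to GRCh37. Coding sequence came before UTRs (3′ ahead of 5′), and these before exons of non-coding transcripts and introns. Measures of exon, UTR and intron structure used canonical transcripts. Only tags in 1 gene were counted, except for region shares, taken over all tags of a library, and tags outside genes. Gene, gene region, 3′ UTR against CDS and tetramer counts were tested by edgeR 4.0.16 (quasi-likelihood F-test, all 12 libraries, Benjamini-Hochberg adjusted p under 0.05) in R 4.3.3. Genes and gene regions were scaled by TMM and filtered by filterByExpr, with DESeq2 1.42.0 as an alternative. The test of 3′ UTR against CDS had a term per library and took genes with at least 10 tags. Tetramers were scaled to the tags of the region in each library. Log2 fold changes are Chtop minus Nxf1, ± SE. Shares and densities were compared by two-sided exact permutation over libraries (scipy 1.17.1). Named were CHTOP, NXF1 and ALYREF, then, among features called, with at least 30 tags and no overlap between groups, the 12 genes and, per kind, the 6 regions with the largest change in each direction, up to 8 genes by 3′ UTR against CDS, and up to 4 members of each gene list by smallest p. Y-linked genes and XIST were left out. 1 region that met this rule is not reported here. The comparison, the lists and the tests were chosen with earlier results of these data known, so none is independent of them. On simulated counts 68.9% of 196 genes changed 4-fold were recovered among those with at least 100 tags, with 1 false call.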

Additional observations from a re-analysis of the deposited data

How the results depend on the processing

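Without 1 library in turn, genes called ranged from 107 to 670 higher in Chtop and from 80 to 516 higher in Nxf1, gene regions from 370 to 1136 and from 26 to 384, genes with a shifted balance of 3′ UTR and CDS from 0 to 0 and from 0 to 8, and 3′ UTR tetramers from 0 to 2 and from 0 to 1. Without replicate 1 of any group these were 950 and 729 genes, 2910 and 513 regions, 3 and 11 balances and 0 tetramers higher in Chtop. DESeq2 called 156 and 101 genes and 7 regions higher in Nxf1. The 6 libraries alone gave 332 genes higher in Chtop, 285 regions and 1 balance higher in Nxf1, and exonic tags only 178 genes higher in Chtop, with CHTOP reversed to -0.071. With library size alone, Nxf1 was higher in 535 genes and 599 regions (8 CDS, 4 3′ UTR and 544 introns) and Chtop in 2 introns. With each kind of region on its own, the calls were 45 and 66 for the CDS, 30 and 39 for the 3′ UTR, 27 and 1 for introns, and 16 non-coding exons higher in Nxf1. Regions with at least 1 tag gave 397 and 21 calls. At least 30 tags gave 6 and 14 balances, and leaving out bases at a shared offset, added after seeing the data, gave 2 and 12 balances and 33 regions higher in Nxf1. Tetramers gave 0 higher in Chtop in a window of 10 nt, and 34 and 50 in the CDS. The cause of these shifts was not tested.

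With a replicate block, 97 regions were higher in Nxf1 and 3 tetramers higher in Chtop, and CHTOP missed the threshold (edgeR adjusted p = 0.054). By the titles of their lane runs, same-numbered libraries of the different proteins shared lanes. Some libraries of different replicate number shared lanes as well, so that replicate number and lane are not the same grouping. The replicate block thus does not stand for a lane batch. Deviations of same-numbered libraries correlated at -0.05, 0.03 and -0.17. These few values cannot settle whether the numbers pair the samples.

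Of the 44 measures, the 3′ UTR to CDS ratio changed sign with genes weighted equally (0.23) and without bases at a shared offset (0.021), as did the ratio within the last exon with equal weights (0.14), the class from 2000 to under 4000 nt without replicate 1 (-0.01) and intronic uracil in percentage points without those bases (-0.78) and without replicate 1 (-0.19). Without 1 library in turn or replicate 1 of every group, ranges crossed 0 for the ratio (-0.085 to 0.019) and its classes under 500 nt (-0.014 to 0.147), from 500 to under 1000 nt (-0.047 to 0.197) and from 2000 to under 4000 nt (-0.051 to 0.083), and, in percentage points, for intronic uracil (-3.37 to 3.43), tags outside genes (-11.2 to 1.78), lncRNA (-1.90 to 0.39), processed pseudogenes (-0.203 to 0.057) and tags within 5 kb past a gene end (-1.101 to 5.51). Depth was least in Nxf1 1, where 0 tags of a gene allow 370 CPM.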
